A study of Mus musculus with 17 samples.

Results

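The 206 genes described here belong to families of enzymes that convert drugs, toxins and other foreign compounds (xenobiotics), together with 3 sensors of such compounds. Of these, 178 are annotated as protein-coding, 27 as pseudogenes (18 of them in P450 families) and 1, Cyp4x1os, as antisense RNA. The pseudogenes Ces2d-ps, Cyp2d37-ps, Cyp4f41-ps and Gstp-ps were among those tested. They were selected by symbol from the 23719 entries of the count table. They comprise the cytochromes P450 of the Cyp1, Cyp2, Cyp3 and Cyp4 families, the flavin-containing monooxygenases (Fmo), the epoxide hydrolases Ephx1 and Ephx2, the carboxylesterases (Ces), the paraoxonases (Pon), the UDP-glucuronosyltransferases (Ugt), the sulfotransferases (Sult), the glutathione S-transferases (Gst, Mgst) and the sensors Ahr, Nr1i2 and Nr1i3. The table of colon RNA counts compares 9 Control mice with 8 mice of a Gulf War illness model (GWI). All were male C57BL/6 mice of 32 to 34 weeks. GWI mice received pyridostigmine bromide (PB), a carbamate that reversibly inhibits acetylcholinesterase, in drinking water at 2 mg/kg for 7 days and then recovered without it for 21 days, whereas Control mice were given water. Tissue of both groups was taken at day 30, so the comparison addresses differences present after the recovery and not when they arose. The colon explants were sequenced after poly(A) selection, and the sources used here do not state the region of the colon or the wall layers that an explant held. Each replicate is a mouse. Library names share a leading part for Control 3 to 5, Control 7 and 8, GWI 1 and 2, GWI 3 to 5, and GWI 7 and 8. What this part marks is not given in the sources used here, and no such part occurs in both groups, so the groups could not be compared within it, and whether mice that share it are independent was not tested. Library depth was 16744096 to 20741212 counts for Control mice (median 17761682) and 16293537 to 18389686 for GWI mice (median 17428512).

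Foreign compounds are typically handled in phases. Phase I enzymes oxidise or hydrolyse a compound, phase II enzymes attach glucuronic acid, sulfate or glutathione to it, and transporters carry the product out of the cell. The aryl hydrocarbon receptor (AHR, gene Ahr), the pregnane X receptor (PXR, gene Nr1i2) and the constitutive androstane receptor (CAR, gene Nr1i3) sense such compounds and switch on many of these enzymes. In the gut wall the enzymes are found mainly in the epithelium, and carboxylesterases there hydrolyse ester and carbamate drugs before they reach the liver.

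The libraries carried the markers of colon. The 11 listed genes of the colon epithelium summed to between 27288 and 48036 CPM (counts relative to the scaled library size) in all 17 mice, with the carbonic anhydrase gene Car1 as the most abundant (mean 12236 CPM). Liver markers, which would accompany hepatic enzymes, summed to at most 31.3 CPM in any mouse, and Alb, which encodes albumin, had at most 9 counts. Of the 5 pancreas markers in the table, none exceeded 10 counts in any mouse, and Cpa1 was at 0 throughout.

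Several libraries stood apart. Control 1 and GWI 5 had 71.0 and 75.3 CPM of Hoxa13, a gene of the hindmost gut, against at most 16.1 CPM in the other mice, and 55.5 and 11.4 CPM of Hoxb13, against at most 2.67 CPM. Of the 93 members that could be tested, 29 had their lowest levels of all mice in these same libraries, and 7 had their highest. Control 6 and Control 7 had 119 and 314 CPM of the ileal gene Fabp6, against at most 6.90 CPM elsewhere, and 189 and 330 CPM of the Paneth cell gene Lyz1, against at most 8.19 CPM. Control 9 had the highest Car1 level (29280 CPM) and the lowest scaling factor (0.799). It also had the highest sum of 12 listed small-intestine markers (3119 CPM, 2.22 times the median of all mice). That sum was 2351 CPM in Control 7 and 1612 CPM in Control 6. Because Control 1 and GWI 5 fall in different groups, results were also computed without this pair, a choice made after seeing the data.

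Of the 206 genes, 93 passed the filter on low counts and were tested, as part of a fit over 14146 genes. At an adjusted p under 0.05 in the quasi-likelihood F test of edgeR (Benjamini-Hochberg), 11 of the 93 (11.8%) were called higher in GWI colons, against 13.4% of all tested genes. Another 7 (7.53%) were called lower, against 13.5% of all tested genes. Both shares lie below that background, so the number of calls does not set these genes apart from other genes. The median log2 fold change of the tested members was 0.08, against -0.06 over all tested genes. No member had groups that did not overlap, which held for 1.83% of all tested genes in the higher direction and 0.523% in the lower. With an absolute log2 fold change over 1 required as well, 2 members were higher, Cyp2d22 and Ugt1a1 (all genes 0.537%), and 1 was lower, Fmo2 (all genes 1.53%), which did not pass this limit without Control 6 and Control 7 (-0.70). By the unadjusted p with the same fold limit, 3 were higher (all genes 0.65%) and 1 was lower (all genes 1.77%).

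These counts differed between sets of libraries and with a covariate of marker genes. Without Control 1 and GWI 5, 24 members were called higher (25.8%, all genes 17.4%) and 11 lower (11.8%, all genes 17.5%). All 11 genes called higher with the full set were among those 24. Without Control 6 and Control 7 the counts were 9 (all genes 10.1%) and 6 (all genes 9.56%), and without all 4 libraries 16 (all genes 15.3%) and 10 (all genes 14.5%). Of 10 smooth muscle markers, 7 were called lower in GWI colons and 0 higher. Their sum was 11188 to 14481 CPM in Control 3 to 5, 6790 and 4702 CPM in Control 7 and 8, and 3658 to 11832 CPM in GWI 3 to 5. With each mouse left out in turn the number called lower ranged from 2 to 10. It was 10 without GWI 5, 9 without Control 8 or Control 9, 2 without Control 6, GWI 3, GWI 4, GWI 6 or GWI 7, 7 without Control 7 or GWI 8, and 3 without any other mouse. The list summed to 3690 to 23923 CPM in Control mice (median 11584) and to 3658 to 11832 CPM in GWI mice (median 5142), and Myh11 was its most abundant gene (mean 2217 CPM). Of the 11 colon epithelium markers, Epcam, Cdh1, Vil1 and Muc2 were called higher and 0 lower, and 2 to 7 were called higher with each mouse left out (7 without Control 1). Only Cdh1 and Vil1 were called in all 17 of those fits. Their sum ranged from 27288 to 45121 CPM in Control mice (median 33012) and from 30407 to 48036 CPM in GWI mice (median 38062). With the difference between the 2 marker lists as a covariate, 6 members were called higher (all genes 12.7%) and 13 lower (all genes 16.2%), and the log2 fold change of 27 of the 93 changed sign, 22 of them to negative. In bulk tissue, more cells of a type and more RNA per cell cannot be told apart. With upper-quartile factors, 10 members were called higher (all genes 8.58%) and 11 lower (all genes 21.2%), and the median log2 fold change of all genes was -0.15, so the shift was not particular to the members.

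**Figure D1:**
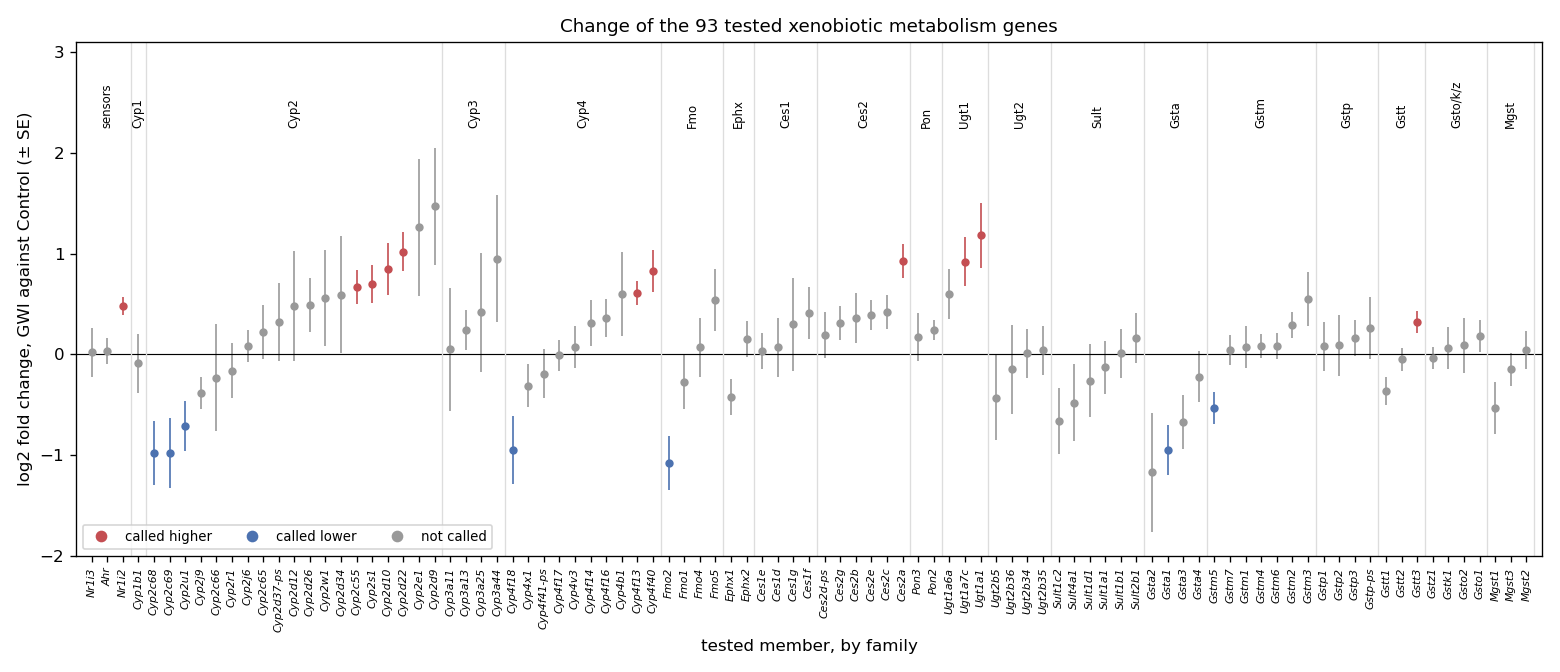
Log2 fold change (GWI against Control, vertical axis, bars ± SE, 9 Control and 8 GWI mice) of the 93 tested members, grouped by family along the horizontal axis. Red points are the 11 members called higher and blue points the 7 called lower at an adjusted p under 0.05 by edgeR, Benjamini-Hochberg; all 7 tested Cyp2d genes lie above 0 and all 4 Gsta genes below it.

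The sensors differed among themselves. Nr1i2, which encodes PXR, ranged from 49.4 to 78.5 CPM in Control colons (median 64.4) and from 76.2 to 101 CPM in GWI colons (median 86.8). The groups overlapped only through Control 1, the sole Control mouse above the lowest GWI value. The log2 fold change was 0.48 ± 0.09 (SE), with an adjusted p of 0.00198 by edgeR with Benjamini-Hochberg adjustment, and the call held under all 31 other settings. These comprise other scalings, filters, tests, covariates and sets of mice, but not the rules with a fold limit, which of the genes called in all 31 only Cyp2d22 passed. Ahr ranged from 12.9 to 28.5 CPM (median 17.8) in Control mice and from 16.5 to 22.9 CPM (median 17.5) in GWI mice, and was not called (log2 fold change 0.03 ± 0.13, adjusted p = 0.878 by edgeR, Benjamini-Hochberg). Its groups overlapped throughout. Nr1i3, which encodes CAR, was scarce, at 1.02 to 3.03 CPM over all mice, and was not called. In addition, 74.9% of its exon length is shared with a gene on the other strand, and whether the counting used the strand is not given in the sources used here. Per kb of exon, the mean level over all mice was 29.5 CPM for Nr1i2, 3.04 for Ahr and 0.357 for Nr1i3.

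Of the genes often measured as readouts of these sensors in liver, several had few counts. Cyp1a1, the best known target of AHR, had 2 to 10 counts per mouse, and Cyp1a2 had 0 in all mice. Cyp2b10, the usual reporter of CAR in liver, had 0 to 8 counts. Cyp1b1, the only tested Cyp1 gene, lay between 2.44 and 5.18 CPM in Control mice (median 3.58) and between 1.70 and 8.86 CPM in GWI mice (median 2.63), and was not called (adjusted p = 0.825 by edgeR, Benjamini-Hochberg). Of the 113 members that failed the filter, 37 had 0 counts in every mouse and 102 had at most 10 in every mouse. The latter include all 11 Cyp4a genes and 12 of 13 Sult2 genes. Failed genes with more than 10 counts in some mouse included Cyp2f2, Cyp2t4, Cyp3a59, Cyp4f15, Cyp4f37, Pon1, Sult5a1, Sult6b1, Ugt1a6b and Ugt2b1.

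The cytochromes P450 are the main oxidases of phase I. Summed over all 99 P450 members, their level was 5527 ± 1288 CPM in Control mice (SD, n = 9) and 8362 ± 1671 CPM in GWI mice (SD, n = 8), a ratio of 1.51. The sum follows Cyp2c55, which makes up 76.2% of it. Cyp2c55, a colon P450 that oxidises arachidonic acid, was also the most abundant member per length, at a mean of 2621 CPM per kb. The next members per length, Mgst3 (324 CPM per kb) and Ces2c (315 CPM per kb), lay far below it in every mouse, and their ranges overlapped each other. Cyp2c55 ranged from 2637 to 6057 CPM in Control colons (median 3738) and from 4486 to 8718 CPM in GWI colons (median 6441). The groups overlapped, with 6 of 9 Control mice below every GWI mouse. The log2 fold change was 0.67 ± 0.17 (SE; adjusted p = 0.0107 by edgeR, Benjamini-Hochberg). With the epithelium and muscle markers as covariate it was 0.29 (adjusted p = 0.312 by edgeR, Benjamini-Hochberg), so this call was lost. Their part in the result was otherwise not tested.

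Further Cyp2 genes moved in both directions. Cyp2d22, regarded as the mouse counterpart of the human drug-metabolising Cyp2d enzyme, ranged from 10.7 to 30.1 CPM in Control mice (median 15.1) and from 25.2 to 48.1 CPM in GWI mice (median 34.5). All Control mice except Control 2 lay below every GWI mouse. Its log2 fold change of 1.02 ± 0.19 (adjusted p = 0.00193 by edgeR, Benjamini-Hochberg) was called under all 31 other settings, and with the marker covariate it was 1.16. The 10 Cyp2d genes lie together on chromosome 15 (82370527 to 82794294, GRCm38), and all 7 tested ones had positive log2 fold changes, from 0.32 to 1.47, as did 44.8% of all genes. All 7 were positive under each of the 4 scalings, but Cyp2d37-ps was negative with the marker covariate. Only Cyp2d22 and Cyp2d10 (0.85 ± 0.26, adjusted p = 0.0228 by edgeR, Benjamini-Hochberg) were called (all genes 13.4% higher). The call of Cyp2d10 was lost with the marker covariate and without Control 6 and Control 7, with adjusted p of at most 0.075 (edgeR, Benjamini-Hochberg). Without Control 1, Cyp2d9, Cyp2d12 and Cyp2d34 were called higher as well (all genes 17.9%). Without Control 1 and GWI 5, Cyp2d26 joined them (all genes 17.4%), but not without Control 6 and Control 7 as well. Cyp2d9, chosen here after its values were seen, lay between 0.987 and 7.22 CPM in 8 Control mice, at 27.6 CPM in Control 1, and between 5.78 and 21.8 CPM in GWI mice. With Control 1 in the fit its adjusted p was 0.0646 by edgeR with Benjamini-Hochberg adjustment, and without that mouse it was called higher. With Control 1 kept, it was also called higher by the DESeq2 Wald test, by limma-voom and with a covariate of small-intestine markers. Cyp2d9 and Cyp2d10 share 9.9% and 14.8% of their 100-base stretches with other transcripts, and how reads from such stretches were assigned was not tested.

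Cyp2s1, a P450 found mainly outside the liver, ranged from 62.2 to 200 CPM in Control mice (median 97.1) and from 168 to 229 CPM in GWI mice (median 193). The groups overlapped through the 2 highest Control mice, and the log2 fold change was 0.70 ± 0.19 (adjusted p = 0.0121 by edgeR, Benjamini-Hochberg). Called lower were Cyp2c68 and Cyp2c69 (both -0.98) and Cyp2u1 (-0.71), a fatty acid hydroxylase. These were scarce genes, with Control medians of 10.3, 4.46 and 1.95 CPM. Cyp2c68 and Cyp2c69 share 19.8% and 36.3% of their 100-base stretches with other transcripts. When each of the 17 mice was left out in turn, they were called in 9 and 6 of 17 fits and Cyp2u1 in 5. With the marker covariate the log2 fold change of Cyp2u1 was -0.22 and the call was lost (adjusted p = 0.653 by edgeR, Benjamini-Hochberg). The call was also lost without the pair of libraries high in Fabp6 and Lyz1 (-0.40, adjusted p = 0.187 by edgeR, Benjamini-Hochberg). Without both pairs that stood apart it was lost at -0.23 (adjusted p = 0.385 by edgeR, Benjamini-Hochberg). Of the 31 other settings, Cyp2u1 was called in 11. Cyp2c55, Cyp2c68 and Cyp2c69 lie in the same cluster of 15 Cyp2c genes on chromosome 19 (39007019 to 40187333).

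In the Cyp3 family, which carries much of hepatic drug oxidation, none of 4 tested genes was called. Cyp3a13, the most abundant, ranged from 82.0 to 316 CPM in Control mice and from 131 to 248 CPM in GWI mice, with medians of 170 and 199. By limma-voom it was called higher (0.47, Benjamini-Hochberg adjusted p = 0.0195). Cyp3a11, the standard PXR target of liver, reached at most 4.53 CPM. Among the Cyp4 genes, whose enzymes hydroxylate fatty acids and leukotrienes, Cyp4f13 ranged from 32.6 to 58.8 CPM in Control colons (median 36) and from 47.4 to 73.8 CPM in GWI colons (median 61.4). Only Control 2 lay within the GWI range. Its log2 fold change was 0.61 ± 0.12 (adjusted p = 0.00204 by edgeR, Benjamini-Hochberg), and it was called under all 31 other settings. Cyp4f40 was also called higher (0.83 ± 0.21, adjusted p = 0.00934 by edgeR, Benjamini-Hochberg), with 7 of 8 GWI mice above every Control mouse. With the marker covariate its log2 fold change was 0.71 ± 0.33 and it was not called (adjusted p = 0.115 by edgeR, Benjamini-Hochberg). Cyp4f18, known from neutrophils, was called lower at under 2 CPM in every mouse, and in 5 of 17 fits that left out a mouse. Its call was also lost with the marker covariate (-0.90 ± 0.48, adjusted p = 0.168 by edgeR, Benjamini-Hochberg). Cyp4f14, the most abundant Cyp4 gene, was not called (0.31 ± 0.23). Its highest value was Control 1 with 356 CPM, and without Control 1 and GWI 5 it was called higher (0.50, adjusted p = 0.0255 by edgeR, Benjamini-Hochberg). Without Control 6 and Control 7 as well it was not called, at a similar log2 fold change (0.47, adjusted p = 0.0632).

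Fmo2, a flavin monooxygenase best known from lung, had the most negative log2 fold change of the called members in the fit with all mice. It ranged from 20.8 to 95.6 CPM in Control mice (median 27.0) and from 13 to 21 CPM in GWI mice (median 16.3). The groups overlapped only slightly, with 8 of 9 Control mice above every GWI mouse. The log2 fold change was -1.08 ± 0.27 (adjusted p = 0.00846 by edgeR, Benjamini-Hochberg). Without Control 6 and Control 7 it was -0.70, and Gsta1 (-1.14), Cyp2c69 (-1.14), Cyp4f18 (-1.04) and Cyp2c68 (-1.01) were then more negative. The highest value belonged to Control 6, which also had the highest sum of smooth muscle markers (23923 CPM). With the marker covariate the log2 fold change was -0.37 and the call was lost (adjusted p = 0.354 by edgeR, Benjamini-Hochberg). Fmo5, the most abundant Fmo per length, was not called (0.54 ± 0.31), but without Control 1 and GWI 5 it was called higher (0.55, adjusted p = 0.0359 by edgeR, Benjamini-Hochberg). Without all 4 libraries that stood apart in pairs it was not called, at a similar log2 fold change (0.52, adjusted p = 0.0837). Not called either was Ephx1, the microsomal epoxide hydrolase (-0.42 ± 0.18, adjusted p = 0.0879 by edgeR, Benjamini-Hochberg). Ephx1 was called lower by limma-voom (-0.53, Benjamini-Hochberg adjusted p = 0.00104), with upper-quartile factors and without Control 9. Cyp2e1, likewise not called, reached its highest level in GWI 7 (49.7 CPM), the mouse with the highest sum of adipocyte markers (590 CPM, against at most 264 CPM elsewhere). The part of those markers was not tested. Without Control 1, which had 34.9 CPM, Cyp2e1 was called higher. It was also called higher without Control 1 and GWI 5, without all 4 libraries and, with all mice, by limma-voom.

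**Figure D2:**
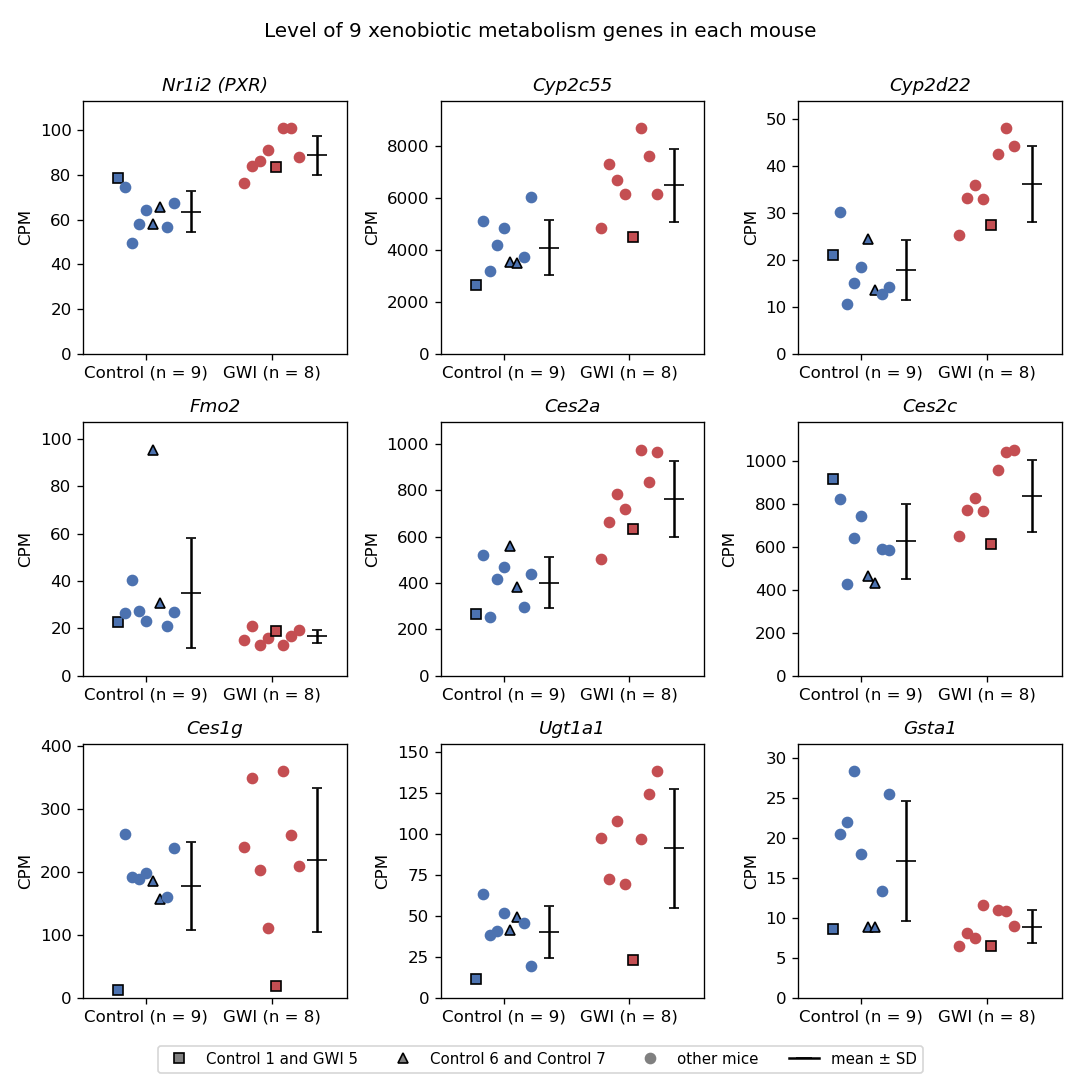
CPM (vertical axes, from 0) of 9 members in each of 9 Control and 8 GWI mice, with bars for mean ± SD. Squares are Control 1 and GWI 5 and triangles are Control 6 and Control 7; Ces1g was at 11.8 and 17.7 CPM in the mice shown as squares, while Ces2a rose to between 503 and 976 CPM in GWI mice.

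The carboxylesterases hydrolyse esters, amides and carbamates. The 20 genes summed to 1909 ± 326 CPM in Control mice (SD, n = 9) and 2699 ± 573 CPM in GWI mice (SD, n = 8), a ratio of 1.41. The 10 tested genes all had positive log2 fold changes, from 0.03 to 0.93 (44.8% of all genes and 67.7% of the tested members were positive), but 1 was called, against 13.4% of all genes called higher. All 4 Ces1 genes (Ces1d -0.23, Ces1e -0.21, Ces1f -0.10, Ces1g -0.18) and Ces2b (-0.04) had negative values with the marker covariate, none of them called. With other scalings at least 2 of the 4 Ces1 genes stayed positive, and all 6 Ces2 genes did. The called gene was Ces2a, on chromosome 8 (104734003 to 104741634, plus strand). It ranged from 252 to 559 CPM in Control colons (median 419) and from 503 to 976 CPM in GWI colons (median 752). The groups overlapped in a narrow band, with 7 of 9 Control mice below every GWI mouse and 7 of 8 GWI mice above every Control mouse. Its log2 fold change was 0.93 ± 0.17 (adjusted p = 0.00188 by edgeR, Benjamini-Hochberg), the smallest adjusted p among the members. The call held under all 31 other settings, and with the marker covariate the log2 fold change was 0.99. Of its 100-base stretches, 10.7% occur in other transcripts.

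None of the other 5 tested Ces2 genes was called. Ces2c, the most abundant carboxylesterase per length, ranged from 426 to 919 CPM in Control mice (median 590) and from 615 to 1054 CPM in GWI mice (median 800). The highest Control value was Control 1. The log2 fold change was 0.42 ± 0.17 (adjusted p = 0.0715 by edgeR, Benjamini-Hochberg), and without Control 1 and GWI 5 it was 0.56 (adjusted p = 0.0129 by edgeR, Benjamini-Hochberg). Ces2e ranged from 273 to 500 CPM in Control mice (median 337) and from 315 to 614 CPM in GWI mice (median 491). Its log2 fold change was 0.39 ± 0.15 (adjusted p = 0.0594 by edgeR, Benjamini-Hochberg), and without that pair 0.43 (adjusted p = 0.0397 by edgeR, Benjamini-Hochberg). Without Control 6 and Control 7 as well, Ces2c was still called (0.45, adjusted p = 0.0464 by edgeR, Benjamini-Hochberg) and Ces2e was not (0.36, adjusted p = 0.107). With all mice kept, Ces2e was called higher by the DESeq2 Wald test (0.39, Benjamini-Hochberg adjusted p = 0.0416). Ces2c was so by limma-voom (0.43, Benjamini-Hochberg adjusted p = 0.015). In edgeR fits that left out a mouse, Ces2e was called without Control 5, GWI 1 or GWI 5. Ces2c was called without Control 1, Control 2 or GWI 5. The groups overlapped widely for both genes. Ces2b (0.36 ± 0.25), Ces2g (0.31 ± 0.17) and the pseudogene Ces2d-ps (0.19 ± 0.23) were not called. Ces2g was called higher by limma-voom (0.37, Benjamini-Hochberg adjusted p = 0.0186) and by edgeR without Control 1. Summed over the 8 Ces2 genes, the level was 1415 ± 272 CPM in Control mice and 2105 ± 422 CPM in GWI mice, with all 8 GWI mice above the Control median.

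The Ces1 genes, which include the main lipid ester hydrolases of liver, form a separate cluster on chromosome 8 (93020214 to 93379725). None of 4 tested genes was called. Ces1g ranged from 11.8 to 259 CPM in Control mice (median 189) and from 17.7 to 359 CPM in GWI mice (median 224; log2 fold change 0.30 ± 0.46). Its lowest value in each group belonged to Control 1 and GWI 5, far below the next mice. The same mice were lowest for Ces1d, Ces1e and Ces1f. Ces1f was not called (0.41 ± 0.26, adjusted p = 0.247 by edgeR, Benjamini-Hochberg), and without the pair it was called higher (0.39, adjusted p = 0.0263 by edgeR, Benjamini-Hochberg). Without Control 6 and Control 7 as well it was not called, at a similar log2 fold change (0.35, adjusted p = 0.0583). With all mice, limma-voom called Ces1f higher (0.50, Benjamini-Hochberg adjusted p = 0.02). Ces1d (0.07 ± 0.29) and Ces1e (0.03 ± 0.18) were not called. The other 10 carboxylesterase genes, Ces1a, Ces1b, Ces1c, Ces1h, Ces2f, Ces2h, Ces3a, Ces3b, Ces4a and Ces5a, failed the filter with at most 10 counts in any mouse.

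The paraoxonases hydrolyse lactones and organophosphates. Pon2 ranged from 188 to 289 CPM in Control mice (median 248) and from 244 to 372 CPM in GWI mice (median 281), and was not called (0.24 ± 0.10, adjusted p = 0.0918 by edgeR, Benjamini-Hochberg). Limma-voom with all mice called Pon2 higher (0.22, Benjamini-Hochberg adjusted p = 0.0448), as did edgeR without Control 9. Pon3 ranged from 27.4 to 120 CPM in Control mice (median 44.8) and from 38.4 to 71.3 CPM in GWI mice (median 64.8). It was not called (0.17 ± 0.24), and with the marker covariate it was called lower (-0.52, adjusted p = 0.0253 by edgeR, Benjamini-Hochberg). By limma-voom it was instead called higher (0.55, Benjamini-Hochberg adjusted p = 0.000791), so its direction depends on the method. Pon1, a serum enzyme made in liver, had at most 12 counts.

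Among the phase II families, Ugt1 had the highest ratio of summed levels. The genes of this locus, on chromosome 1 (88055388 to 88220002), have first exons of their own and share the remaining exons. Of the exon length of Ugt1a1, 82.7% overlaps other genes, and of that of Ugt1a7c 54.6%, counting both the shared exons and Gm20528 on the other strand, and how such reads were assigned limits each gene's count. Ugt1a1, which conjugates bilirubin, ranged from 11.1 to 63.5 CPM in Control mice (median 41.5) and from 22.7 to 138 CPM in GWI mice (median 97.1). Its log2 fold change was 1.18 ± 0.32 (adjusted p = 0.0124 by edgeR, Benjamini-Hochberg). Ugt1a7c ranged from 82.4 to 252 CPM in Control mice (median 188) and from 97.9 to 431 CPM in GWI mice (median 368), with a log2 fold change of 0.92 ± 0.24 (adjusted p = 0.0123 by edgeR, Benjamini-Hochberg). For both genes, 7 of 8 GWI mice exceeded every Control mouse, and the exception was GWI 5. Both calls were lost with the marker covariate (adjusted p = 0.0567 for Ugt1a1 and 0.228 for Ugt1a7c by edgeR, Benjamini-Hochberg), though the log2 fold change of Ugt1a1 was no smaller (1.27 ± 0.48) and that of Ugt1a7c was 0.60 ± 0.37. The family summed to 229 ± 67.6 CPM in Control mice and 443 ± 139 CPM in GWI mice, a ratio of 1.93.

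The Ugt2 and sulfotransferase families showed no calls by edgeR with all mice and no covariate. With the marker covariate, Ugt2b5, Ugt2b34, Ugt2b36, Sult1c2 and Sult1d1 were called lower (all genes 16.2%). Sult1c2 was also called lower without Control 1 and GWI 5 (all genes 17.5%). In the other direction, Sult2b1 was called higher without Control 1 (all genes 17.9%) and Sult1b1 by limma-voom (all genes 27.6%). Ugt2b34, which makes up 85.7% of the Ugt2 sum, ranged from 365 to 1522 CPM in Control mice (median 565) and from 411 to 795 CPM in GWI mice (median 672; log2 fold change 0.01 ± 0.24). With the marker covariate it was called lower (-0.63, adjusted p = 0.0165 by edgeR, Benjamini-Hochberg). By limma-voom it was called higher (0.36, Benjamini-Hochberg adjusted p = 0.0161). Sult1d1, a sulfotransferase of catecholamines, ranged from 244 to 2644 CPM in Control mice (median 517) and from 393 to 890 CPM in GWI mice (median 638). The highest value of both genes belonged to Control 9. Sult1d1 was not called (-0.26 ± 0.36), and with the marker covariate it was called lower (-1.10, adjusted p = 0.00849 by edgeR, Benjamini-Hochberg), while limma-voom gave 0.38, not called.

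The 24 Gst genes, without the Mgst genes, were nearly level as a class. They summed to 1390 ± 323 CPM in Control mice and 1462 ± 243 CPM in GWI mice. Their ratio of 1.05 lay between 0.981 and 1.05 with other scalings. The 3 Mgst genes summed to 748 ± 275 CPM in Control mice and 659 ± 79.3 CPM in GWI mice, a ratio of 0.882. In the alpha class, all 4 Gsta genes had negative log2 fold changes under each of the 4 scalings, and 1 was called lower (all genes 13.5%). However, 44.8% of all tested genes were positive and most were negative. Gsta1 ranged from 8.53 to 28.3 CPM in Control mice (median 18.0) and from 6.5 to 11.6 CPM in GWI mice (median 8.48). The groups overlapped through Control 1, Control 6 and Control 7. The log2 fold change was -0.95 ± 0.25 (adjusted p = 0.0116 by edgeR, Benjamini-Hochberg). Gsta1 shares 81.8% of its 100-base stretches with other transcripts, mainly of the predicted gene Gm3776 and of Gsta2, so reads of these genes are hard to tell apart. Gsta4, the most abundant alpha gene, was not called (-0.22 ± 0.25).

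Gstm5 was called lower (-0.53 ± 0.16, adjusted p = 0.023 by edgeR, Benjamini-Hochberg), with 8 of 9 Control mice above every GWI mouse. Gstt3 was called higher (0.32 ± 0.11, adjusted p = 0.0393 by edgeR, Benjamini-Hochberg) in 7 of the 17 fits that left out a mouse. The genes with the highest level per length in the remaining classes, Gstm1 (0.07 ± 0.21), Gsto1 (0.18 ± 0.16), Gstp1 (0.08 ± 0.24), Gstt1 (-0.36 ± 0.14) and the membrane-bound Mgst3 (-0.15 ± 0.16), were not called. Gstt1 was called lower without Control 1 and GWI 5 (-0.36, adjusted p = 0.00407 by edgeR, Benjamini-Hochberg), and Mgst3 with the marker covariate (-0.51, adjusted p = 0.0312 by edgeR, Benjamini-Hochberg). With all mice, limma-voom also called Gstt1 lower (-0.33, Benjamini-Hochberg adjusted p = 0.00448). All members together took 1.26% ± 0.225 (SD, n = 9) of the counts in Control mice and 1.63% ± 0.271 (SD, n = 8) in GWI mice.

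Other genes of the pathway were read from 8 lists with 125 genes, of which 110 were tested. In these lists 23 genes (20.9%, all genes 13.4%) were called higher and 7 (6.36%, all genes 13.5%) lower by edgeR, with a median log2 fold change of 0.04. The same 13.4% and 13.5% of all genes stand against the counts of each list below. Por encodes the reductase that passes electrons to all microsomal P450 enzymes. It ranged from 66.9 to 236 CPM in Control mice (median 177) and from 256 to 332 CPM in GWI mice (median 293), so the groups did not overlap. The log2 fold change was 0.83 ± 0.18 (adjusted p = 0.00375 by edgeR, Benjamini-Hochberg), and with the marker covariate 1.19. The other 8 electron donor genes were not called.

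Of 15 tested nuclear receptor genes and partners, 7 were called higher (all genes 13.4%) and 0 lower (all genes 13.5%). Vdr, the vitamin D receptor, ranged from 227 to 348 CPM in Control mice (median 276) and from 350 to 466 CPM in GWI mice (median 404; log2 fold change 0.53 ± 0.10). Ncor1, a corepressor of these receptors, ranged from 150 to 186 CPM (median 178) and from 193 to 259 CPM (median 237), with a log2 fold change of 0.43 ± 0.08. Neither gene had overlapping groups. Of 8 tested partners and targets of AHR, the partner Arnt was called higher (0.21 ± 0.06, adjusted p = 0.0239 by edgeR, Benjamini-Hochberg) and the co-chaperone gene Ptges3 lower (-0.49 ± 0.11, adjusted p = 0.00459 by edgeR, Benjamini-Hochberg). The targets Ahrr, Tiparp and Nqo1 were not called.

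Among 31 other phase I genes, 3 were called in each direction (all genes 13.4% higher, 13.5% lower). Adh1, an alcohol dehydrogenase, ranged from 120 to 376 CPM in Control mice (median 154) and from 288 to 1245 CPM in GWI mice (median 305, log2 fold change 1.48 ± 0.35). The groups overlapped, with 8 of 9 Control mice below every GWI mouse and 2 of 8 GWI mice above every Control mouse. The GWI mean of 508 ± 380 CPM (SD) lay well above the GWI median. Xdh (0.56 ± 0.13) was called higher, and Aldh1a3 (-0.73 ± 0.20) and Maob (-0.67 ± 0.19) lower. Of 9 other esterases, the serine hydrolase genes Apeh (0.53 ± 0.11, adjusted p = 0.00351 by edgeR, Benjamini-Hochberg) and Faah (0.66 ± 0.14, adjusted p = 0.00437 by edgeR, Benjamini-Hochberg) were called higher. Of 9 other phase II genes, the methyltransferase genes Hnmt (-0.97 ± 0.18), which inactivates histamine, and Inmt (-1.27 ± 0.31) were called lower.

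The supply of cofactors and the export of products were represented by 13 and 16 tested genes. In the first list 4 were called higher (all genes 13.4%) and 0 lower (all genes 13.5%). Papss2 encodes the enzyme that makes the sulfate donor of the sulfotransferases. It ranged from 308 to 519 CPM in Control mice (median 433) and from 506 to 1130 CPM in GWI mice (median 654; log2 fold change 0.81 ± 0.17). Bpnt1, which degrades the spent donor, was higher by 0.40 ± 0.09. Of the transporters, 5 were called higher (all genes 13.4%) and 1 lower (all genes 13.5%). Slc22a5, a carnitine transporter, ranged from 30.0 to 50.6 CPM in Control mice (median 38.2) and from 53.4 to 81.4 CPM in GWI mice (median 68.3). Its groups did not overlap, and its log2 fold change of 0.80 ± 0.12 had an adjusted p of 0.000648 by edgeR with Benjamini-Hochberg adjustment. Slco4a1 (0.81 ± 0.15) was called higher and Abcc2 (-0.76 ± 0.20), an exporter of conjugates, lower. With the marker covariate Slco4a1 was still called, at a smaller log2 fold change (0.42 ± 0.15, adjusted p = 0.0465 by edgeR, Benjamini-Hochberg). In all, 7 of the 110 genes (6.36%, all genes 1.83%) did not overlap between groups in the higher direction and 1 (0.909%, all genes 0.523%) in the lower. With the marker covariate 16 genes of these lists were called higher (all genes 12.7%) and 23 lower (all genes 16.2%), and 10 of the 23 calls higher and 4 of the 7 calls lower were lost. Among the genes named above, the lost calls were those of Arnt (0.23 ± 0.09, no smaller than before), Papss2 (0.58), Aldh1a3 (-0.08), Maob (-0.41), Inmt (-0.57) and Abcc2 (-0.47).

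The promoters of the members were searched for 3 short motifs, chosen after the data were seen, in the 250 bases before each annotated start (RefSeq, build GRCm38.p6, both strands; no motif contains another). Of the 206 genes, 149 matched a promoter, with 170 starts. GCGTG, the core of the AHR and ARNT site, was in 26 of the 170 (15.3%), against 28.2% of all 32851 promoters. AGGTCA, the half-site of nuclear receptors, was in 34 (20%), against 14% of all promoters. TTATGTAA, the site of the PAR bZIP factors, was in 6 (3.53%), against 0.819% of all promoters. Of these 6, 5 belong to Ces1 genes (Ces1a, Ces1b, Ces1c, Ces1e and Ces1g, of 6 Ces1 genes with a promoter), which are tandem copies and so not independent. A match is a description of letters and not evidence of binding. Printed 5′ to 3′ on the strand of the gene, with the motif in capitals, are the promoters of Ces2a, the carboxylesterase called higher (chr8:104733753-104734002, plus strand), of Cyp1a1, the scarcely transcribed AHR target (chr9:57697363-57697612, plus strand), and the stretches of 60 bases around the motif that Ces1e (chr8:93229667-93229726, minus strand) and Ces1g (chr8:93337400-93337459, minus strand), both tested and not called, have in common.
Ces2a, AGGTCA in capitals: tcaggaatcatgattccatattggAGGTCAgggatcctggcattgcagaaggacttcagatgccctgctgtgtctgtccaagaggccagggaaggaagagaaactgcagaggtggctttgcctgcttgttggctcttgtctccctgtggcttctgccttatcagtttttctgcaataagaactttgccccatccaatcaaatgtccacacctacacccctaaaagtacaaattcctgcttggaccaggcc
Cyp1a1, GCGTG in capitals: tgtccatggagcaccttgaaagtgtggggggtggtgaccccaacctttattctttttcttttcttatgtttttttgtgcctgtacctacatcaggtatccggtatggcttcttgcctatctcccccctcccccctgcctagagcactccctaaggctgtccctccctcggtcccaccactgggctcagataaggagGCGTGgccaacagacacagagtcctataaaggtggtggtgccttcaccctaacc
Ces1e, TTATGTAA in capitals: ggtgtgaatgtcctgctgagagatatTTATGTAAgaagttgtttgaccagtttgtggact
Ces1g, TTATGTAA in capitals: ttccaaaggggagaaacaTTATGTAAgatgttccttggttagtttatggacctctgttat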

How the data were processed

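Poly(A)-selected RNA of 17 mouse colons was sequenced, and the authors deposited raw counts per gene and mouse, without normalization. Per the study's methods and the submitters' processing notes, reads were trimmed with Trimmomatic 0.36, mapped with STAR 2.5.2b to GRCm38 and counted with featureCounts. The strand setting is not given in the sources used here. All 17 columns matched a mouse and 0 columns were left over. The members and lists were chosen with earlier results of these data known.

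Counts were filtered with filterByExpr at its defaults (minimum count 10), given TMM factors, and fitted by edgeR 4.0.16 in R 4.3.3 (glmQLFit with robust estimation, then glmQLFTest), with group as the only term. The Benjamini-Hochberg adjustment covered the 14146 genes of the fit, and a gene was called at an adjusted p under 0.05. Standard errors were derived from log2 fold change and F. The fitting code was tested on simulated data. CPM use TMM-scaled library sizes, and levels per kb use merged exon lengths of GENCODE M21, which also gave positions, exon overlaps and stretches of 100 bases shared between transcripts. Family sums carry no test.

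Named genes are, per family, up to 3 called in each direction with the smallest p and the most abundant per length, every tested Ces and Pon gene, the 3 sensors and, per other list, up to 2 called genes in each direction. Cyp2d9, Cyp2d10, Cyp2e1 and Cyp3a11 are named beyond this rule and were chosen after seeing the data. Also named beyond it are Cyp1a1, Cyp1a2, Cyp2b10, other genes listed as failing the filter, Ahrr, Tiparp and Nqo1. The same holds for genes listed only because a call or sign changed with another setting. Alternatives were DESeq2 size factors, upper-quartile factors, library size alone, the DESeq2 1.42.0 Wald test, limma-voom (limma 3.58.1) with quality weights, no robust estimation, 2 other filters, the replicate block, 2 marker covariates, each mouse left out and 2 other call rules. Fits without Control 1 and GWI 5, without Control 6 and Control 7, and without all 4 were added after seeing the data.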

Additional observations from a re-analysis of the deposited data

Results flagged for a closer look

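In the 43 named members, the 5 sums over enzyme classes and the total counts, 98 groups of 8 or 9 mice were searched for a mouse far from the others of its group (Dixon's ratio over 0.493 for 9 mice or 0.526 for 8). Chance flags about 1 in 20 groups, and 21 of 98 groups held such a mouse, most often Control 1, Control 9 or GWI 5. These values are CPM.

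Control 1 was lowest for Ces1g (11.8), Gsta4 (19.8) and Gstt1 (18.4), and highest for Ces2g (14.1) and Cyp4f14 (356). GWI 5 was lowest for Ces1f (85.3), Gsta4 (26.9), Ugt1a7c (97.9), Ugt2b34 (411) and the summed Ugt genes (582). It was highest for Cyp2c68 (15.7), Cyp2c69 (8.39) and Nr1i3 (3.03). These are the libraries with high Hoxa13 and Hoxb13.

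Control 9 was highest for Cyp2c68 (29.7), Gstm5 (78.1), Sult1d1 (2644), Ugt2b34 (1522) and the summed Ugt genes (1975). Control 6 was highest for Fmo2 (95.6), Control 2 for Cyp4f13 (58.8) and GWI 8 for Cyp1b1 (8.86). No total count stood apart.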

How the results depend on the processing

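Of the 11 members called higher, Ces2a, Cyp2d22, Cyp2s1, Cyp4f13 and Nr1i2 were called under all 31 other settings, which do not include the 2 rules with a fold limit. With 11 members higher and 7 lower as the reported counts, limma-voom gave 28 and 13 (all genes 27.6% higher and 29.5% lower), the fit with the epithelium and muscle marker covariate 6 and 13 (all genes 12.7% and 16.2%), and the fit without Control 1 and GWI 5, added after seeing the data, 24 and 11 (all genes 17.4% and 17.5%). The DESeq2 Wald test, which the study's methods also used, gave 15 and 8 of 106 tested members (all genes 14.5% and 16.1%). The rule with an unadjusted p and an absolute log2 fold change over 1 gave 3 and 1 (all genes 0.65% and 1.77%). That with the adjusted p gave 2 and 1 (all genes 0.537% and 1.53%). Upper-quartile factors gave 11 lower members (all genes 21.2%) and no filter on low counts 4 (all genes 8.49%). Leaving out each mouse gave 10 to 19 higher members (19 without Control 1) and 3 to 9 lower, while 10.4% to 17.9% of all genes were higher and 9.21% to 16.3% lower. The lower count was 9 without Control 1, 4 without Control 7, GWI 2 or GWI 6, and 3 without GWI 3, GWI 4, GWI 7 or GWI 8.

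In the other pathway lists, 23 genes were higher and 7 lower as reported. Limma-voom gave 37 and 20 (all genes 27.6% and 29.5%). With a fold limit, the unadjusted rule gave 1 higher and 2 lower (all genes 0.65% and 1.77%). The adjusted rule gave 1 and 1 (all genes 0.537% and 1.53%). Upper-quartile factors gave 14 lower (all genes 21.2%). The marker covariate gave 23 lower (all genes 16.2%). The fit without Control 1 and GWI 5 gave 12 lower (all genes 17.5%). Leaving out each mouse gave 7 to 14 lower (all genes 9.21% to 16.3%), with 14 without Control 1 (all genes 16.3%). With the marker covariate the sign changed for 10 of 43 named members: Pon3 (-0.52) and Ugt2b34 (-0.63), both then called lower, and Ces1d, Ces1e, Ces1f, Ces1g, Ces2b, Cyp3a13, Cyp1b1 and Ephx1, none of them called. By limma-voom Pon3 (0.55) and Ugt2b34 (0.36) were called higher. The cause was not tested.

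The replicate numbers did not pair the mice: deviations of same-numbered mice correlated at -0.506 to 0.115 over 8 pairs, and 0 of 8 GWI mice correlated best with the Control mouse of their number. With the replicate block, 9 members were higher and 2 lower (all genes 9.96% and 5.78%). Not called with it were Cyp2d10, Gstt3, Ugt1a1, Ugt1a7c, Cyp2c68, Cyp2c69, Cyp2u1, Gsta1 and Gstm5, and for Gsta1 and Gstm5 it was the only such setting. No library exceeded 5 times the median sum of small-intestine markers, so leaving out libraries above that limit gave no value. The covariate of small-intestine markers gave 11 higher and 6 lower members (all genes 11.3% and 10.7%). A level of 1 CPM stood for as few as 14.3 counts, so Cyp2u1, Cyp4f18 and Nr1i3 rest on few counts.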
